A study of Homo sapiens with 8 samples.

Results

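The genes described here are the replication-dependent histone genes of chromosomes 1 and 6. They were chosen by name from a RefSeq table of GRCh38.p14: every protein-coding gene on these chromosomes whose symbol starts with H1-, H2AC, H2BC, H3C or H4C. The rule found 68 genes among the 20037 protein-coding genes of chromosomes 1 to 22, X and Y. They comprise 6 genes for the linker histone H1, 17 for H2A, 18 for H2B, 13 for H3 and 14 for H4.

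ATAC-seq, which uses a transposase to cut and tag open DNA, was run on 2 human lung cancer cell lines that the labels give as wild type in genotype. The series title joins SMARCA4 mutation in lung cancer to the STING pathway and to immunotherapy. The 8 samples form 4 groups of 2: H1975 cells with DMSO, H1975 cells with ACBI1, HCC44 cells with DMSO and HCC44 cells with ACBI1. Exposure lasted 96 h in every group, and the labels give the ACBI1 dose as 1 mM. ACBI1 brings about the breakdown of the SWI/SNF remodeller subunits SMARCA4, SMARCA2 and PBRM1, the first pair being the motors of the complex; DMSO is its solvent. Each line stands for 1 tumour, the labels do not say whether the replicates of a group were separate cultures, and the p-values below therefore measure only the spread between these samples.

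Replication-dependent histone genes supply the bulk of the core and linker histones that package newly copied DNA in S phase. They are short, mostly lack introns, sit in dense clusters with many H2A and H2B genes back to back, and their messages end in a stem-loop instead of a poly(A) tail. In dividing cells the factor NPAT gathers at these clusters in the histone locus body, while HINFP acts at H4 promoters and the octamer factor POU2F1 at H2B promoters.

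Promoter sequences are shown first, for genes that differ in where peaks were listed. Each line gives the 250 bases before the annotated start, 5′ to 3′ along the gene, from RefSeq on GRCh38.p14. Capitals mark matches, on either strand, to TATAAA (the TATA box), CCAAT (the core bound by NF-Y) and ATTTGCAT (the octamer). The set holds 5 genes whose ends carried a peak in all 8 lists (H4C4, H4C8, H4C11, H2BC21, H1-4), 4 whose ends carried one in the H1975 lists alone (H4C5, H4C6, H4C12, H2BC8) and 3 with none in any list (H4C7, H4C14, H1-6).
H4C4: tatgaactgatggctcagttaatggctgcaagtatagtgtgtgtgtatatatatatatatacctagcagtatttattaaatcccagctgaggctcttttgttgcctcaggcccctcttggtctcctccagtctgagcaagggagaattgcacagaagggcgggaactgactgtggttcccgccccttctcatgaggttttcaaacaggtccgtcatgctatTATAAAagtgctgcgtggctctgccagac
H4C8: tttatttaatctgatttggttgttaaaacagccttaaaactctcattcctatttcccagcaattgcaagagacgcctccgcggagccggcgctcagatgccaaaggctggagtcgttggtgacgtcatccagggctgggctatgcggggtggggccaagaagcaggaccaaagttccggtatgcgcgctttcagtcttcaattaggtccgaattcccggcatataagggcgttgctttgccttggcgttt
H4C11: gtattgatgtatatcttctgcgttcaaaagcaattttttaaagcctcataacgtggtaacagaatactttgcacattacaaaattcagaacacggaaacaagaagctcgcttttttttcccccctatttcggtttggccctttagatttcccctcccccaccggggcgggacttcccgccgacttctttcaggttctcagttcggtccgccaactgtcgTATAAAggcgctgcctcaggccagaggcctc
H2BC21: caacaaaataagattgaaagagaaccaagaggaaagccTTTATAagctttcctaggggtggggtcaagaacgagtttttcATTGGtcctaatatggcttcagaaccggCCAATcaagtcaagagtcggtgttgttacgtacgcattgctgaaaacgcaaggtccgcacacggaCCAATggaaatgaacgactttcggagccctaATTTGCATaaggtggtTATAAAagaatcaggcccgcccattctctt
H1-4: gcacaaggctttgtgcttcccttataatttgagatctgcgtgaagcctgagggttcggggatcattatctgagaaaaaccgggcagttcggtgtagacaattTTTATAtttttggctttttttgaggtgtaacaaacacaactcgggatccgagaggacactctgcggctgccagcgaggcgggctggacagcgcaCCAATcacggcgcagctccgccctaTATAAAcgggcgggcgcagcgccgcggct
H4C5: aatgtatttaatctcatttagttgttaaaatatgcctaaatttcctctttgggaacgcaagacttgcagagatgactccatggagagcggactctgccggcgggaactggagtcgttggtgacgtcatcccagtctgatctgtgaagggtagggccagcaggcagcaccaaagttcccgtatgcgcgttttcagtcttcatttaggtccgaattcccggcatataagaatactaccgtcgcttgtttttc
H4C6: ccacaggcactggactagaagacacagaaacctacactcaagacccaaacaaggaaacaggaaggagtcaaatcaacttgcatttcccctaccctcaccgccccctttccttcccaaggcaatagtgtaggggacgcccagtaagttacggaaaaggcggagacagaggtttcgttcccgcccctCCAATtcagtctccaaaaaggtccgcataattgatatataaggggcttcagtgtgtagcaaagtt
H4C12: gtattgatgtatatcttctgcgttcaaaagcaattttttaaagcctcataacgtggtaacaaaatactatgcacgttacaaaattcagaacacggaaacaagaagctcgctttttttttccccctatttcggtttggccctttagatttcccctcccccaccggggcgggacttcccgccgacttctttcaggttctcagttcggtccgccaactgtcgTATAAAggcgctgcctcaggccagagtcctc
H2BC8: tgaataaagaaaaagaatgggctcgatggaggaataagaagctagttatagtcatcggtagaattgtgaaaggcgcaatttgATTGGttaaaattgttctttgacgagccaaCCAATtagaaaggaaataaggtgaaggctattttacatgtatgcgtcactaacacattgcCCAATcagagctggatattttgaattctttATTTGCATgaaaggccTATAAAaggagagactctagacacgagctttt
H4C7: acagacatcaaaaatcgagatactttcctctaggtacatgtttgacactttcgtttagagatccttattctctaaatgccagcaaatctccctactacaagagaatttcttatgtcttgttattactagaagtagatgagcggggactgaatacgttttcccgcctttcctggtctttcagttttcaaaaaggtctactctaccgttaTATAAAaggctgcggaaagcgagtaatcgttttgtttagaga
H4C14: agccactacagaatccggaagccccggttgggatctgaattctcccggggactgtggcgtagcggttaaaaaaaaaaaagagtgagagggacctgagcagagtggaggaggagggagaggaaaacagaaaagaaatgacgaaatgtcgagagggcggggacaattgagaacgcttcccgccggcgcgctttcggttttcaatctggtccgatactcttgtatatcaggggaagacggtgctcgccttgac
H1-6: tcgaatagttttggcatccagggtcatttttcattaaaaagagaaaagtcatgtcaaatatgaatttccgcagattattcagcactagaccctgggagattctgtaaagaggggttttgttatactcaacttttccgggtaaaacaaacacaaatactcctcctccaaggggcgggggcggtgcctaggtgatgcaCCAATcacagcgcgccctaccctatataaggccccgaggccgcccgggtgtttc

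Their places, in the same order, are chr6:26189113-26189362 on the minus strand for H4C4, chr6:26285535-26285784 on the minus strand for H4C8, chr6:27823842-27824091 on the plus strand for H4C11, chr1:149886683-149886932 on the minus strand for H2BC21, chr6:26156079-26156328 on the plus strand for H1-4, chr6:26204360-26204609 on the plus strand for H4C5, chr6:26240143-26240392 on the plus strand for H4C6, chr6:27831561-27831810 on the minus strand for H4C12, chr6:26216689-26216938 on the minus strand for H2BC8, chr6:26246997-26247246 on the minus strand for H4C7, chr1:149832407-149832656 on the plus strand for H4C14 and chr6:26108136-26108385 on the minus strand for H1-6. Of the 68 genes, 63 matched the promoter table. The H4C11 and H4C12 sequences share 245 of 250 bases (98%) when laid base against base. Yet the first gene had a peak at its ends in every list and the second in the H1975 lists alone. Near-identical copies can share reads, and the part this plays here was not tested. The H4C11 start lay in a peak in every list, the H4C12 start only in that of H1975 ACBI1 replicate 1. H4C14 is identical over these 250 bases to H4C15, a second copy on chromosome 1.

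These motifs were counted in all promoters of the table, whatever the peaks. TATAAA stands in 41 of the 63 histone promoters (65.1%), against 9.23% of the 15843 protein-coding promoters of the same length. CCAAT stands in 54 (85.7%), against 34.5%, and ATTTGCAT in 26 (41.3%), against 1.65%. CCAAT is in all the H1, H2A, H2B and H3 promoters but in only 3 of 12 H4 promoters. ATTTGCAT is in 14 of 18 H2B and 11 of 16 H2A promoters, 1 of 11 H3 promoters and no H1 or H4 promoter; the shared starts of back-to-back H2A and H2B genes put some copies in both windows. Among the 42 promoters of genes with a peak in all 8 lists, 29 hold TATAAA, 37 CCAAT and 18 ATTTGCAT. Among the 13 of genes listed in H1975 alone the counts are 7, 11 and 6, and among the 7 of genes listed nowhere they are 5, 5 and 2. A match is a description of letters and not of a bound site.

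The genes fall into 5 stretches, in which neighbours lie under 500 kb apart. On chromosome 1, 11 genes from H2BC18 to H2AC21 occupy chr1:149782689-149887965, and the pair H2AC25 and H2BC26 lies at chr1:228457364-228458558. On chromosome 6, 34 genes from H2AC1 to H4C8 occupy chr6:25726063-26285534, 5 genes from H2BC11 to H2AC12 lie at chr6:27132316-27147562, and 16 genes from H2BC13 to H2BC17 at chr6:27807479-27893891.

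A boundary peak below is a listed peak that overlaps by at least 1 base a window reaching 1 kb to either side of either end of a gene. The authors deposited 1 peak list per sample, with the H1975 DMSO lists holding 43525 and 41027 peaks, the H1975 ACBI1 lists 27682 and 22133, the HCC44 DMSO lists 50347 and 49945 and the HCC44 ACBI1 lists 26313 and 24862. Every listed peak had a −log10 q of at least 10.0, the depth in reads is unknown, and a gene without a peak is not thereby shown to be closed. The smallest gap between peaks ran from 657 to 877 bp in the H1975 lists and from 1005 to 1153 bp in the HCC44 lists. Neighbouring peaks were thus joined at different distances, and at longer ones in HCC44. As a check of the labelled cells, 5 of 6 epithelial marker genes had a boundary peak in all 8 lists and CDH1 in 7. The lung surfactant gene SFTPC had one in 8 lists, SFTPB in 2 and the lung lineage factor NKX2-1 in 5, the leukocyte gene PTPRC and the endothelial gene PECAM1 in none, the T-cell gene CD3E in 3, and the mesenchymal genes VIM and COL1A1 in all 8.

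Nearly all histone genes carried a boundary peak in H1975, fewer did in HCC44, and within a line the number was almost the same with and without ACBI1. It was 61 of 68 in each of the 4 H1975 lists (89.7%), 47 in both HCC44 DMSO lists (69.1%) and 48 in both HCC44 ACBI1 lists (70.6%). Over all protein-coding genes the share was 57.4% to 61.8% in the 8 lists. Boundary peaks in all 8 lists were found at 47 histone genes (69.1%, against 52.7% of all protein-coding genes), and in no list at 7 (10.3%, against 33%).

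**Figure D1:**
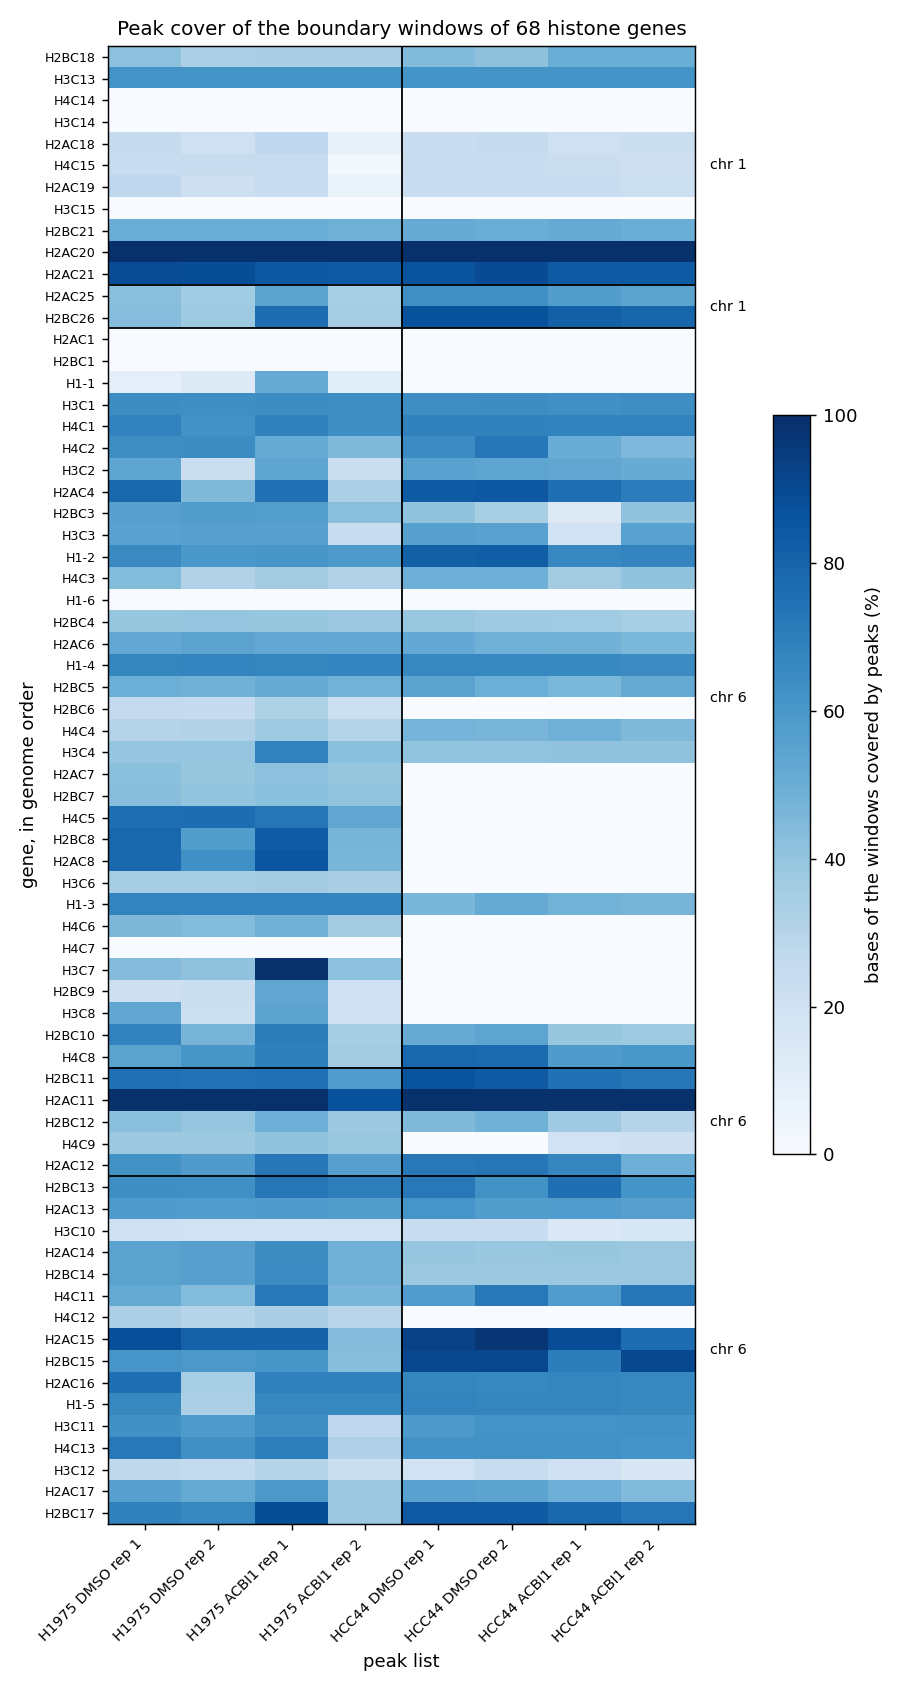
Each row is 1 of the 68 histone genes in genome order and each column 1 peak list; the colour gives the percentage of the bases in the gene's boundary windows that peaks cover, from 0 to 100%. Horizontal lines separate the 5 stretches, and the third stretch holds genes that are blank in the 4 HCC44 columns and coloured in the 4 H1975 columns, beside H2AC1, H2BC1, H1-6 and H4C7, which are blank in all 8.

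By family, the H1 genes had boundary peaks in all 8 lists at 4 of 6 genes, H2A at 14 of 17, H2B at 13 of 18, H3 at 8 of 13 and H4 at 8 of 14. In H1975, H4C3, which encodes the core histone H4, had the highest fold enrichment among boundary peaks of histone genes in 3 of the 4 lists (named here after its values were seen), with 6.44 and 8.62 in DMSO and 7.07 and 9.47 in ACBI1. In HCC44 the same gene had 5.36 and 5.49 in DMSO and 5.34 and 3.94 in ACBI1. These folds are the authors' enrichment over background for each peak, and they rank peaks within a list only.

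The gene with the highest median rank of fold enrichment in each family was H1-3 for the linker histones, H2AC18 for H2A, H2BC6 for H2B, H3C13 for H3 and H4C4 for H4. Their median percentiles over the lists that held the peak were 33.1, 22.3, 65.3, 27.9 and 69.97. The peak ranked for H2AC18 is also the boundary peak of H4C15, and in no list did a peak cover the start of either gene. H4C4 had folds of 7.06, 7.41, 5.40 and 8.20 in the H1975 lists, DMSO first, and of 7.04, 6.52, 6.01 and 5.37 in the HCC44 lists. H2BC6, a replication-dependent H2B gene, had 7.24 and 8.24 in H1975 DMSO and 5.34 and 8.98 in H1975 ACBI1, and no boundary peak in HCC44. H3C13 had 5.38, 6.15, 5.10 and 7.50 in H1975 and 4.81, 4.64, 4.11 and 3.73 in HCC44, from 1 peak that it shares with H2BC18. For H4C4 the DMSO and ACBI1 folds overlap in H1975, and in HCC44 both ACBI1 folds were the lower ones. The scale of fold differs between libraries, so no change was read from it.

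Most boundary peaks of histone genes were broad and of low fold enrichment for their list. The 42, 45, 40 and 46 distinct boundary peaks of the H1975 lists had median fold percentiles of 11.0, 13.7, 9.27 and 15.1. The 30, 30, 32 and 31 of the HCC44 lists had 12.3, 13.6, 11.8 and 12.2. Boundary peaks of other protein-coding genes had medians between 38.6 and 61.5 in the 8 lists. By −log10 q, which grows with the reads in a peak, the histone peaks had median percentiles from 57.7 to 75.0. Boundary peaks of all protein-coding genes had 70.2 to 78.3, above the histone median in 7 of the 8 lists. Their median width was 1576.5, 1164, 1869.5 and 927 bp in the H1975 lists. In the HCC44 lists it was 1894.5, 1920, 1743 and 1872 bp, against 811 to 1146 bp for other genes in the 8 lists. Among other genes' peaks within the middle range of the histone peaks' widths (between their lower and upper quartiles), the median fold percentile was 24.3 to 68.7, above the histone median in each of the 8 lists. These peaks, with median widths of 852 to 1731 bp, were still narrower at the median than the histone peaks in every list.

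**Figure D2:**
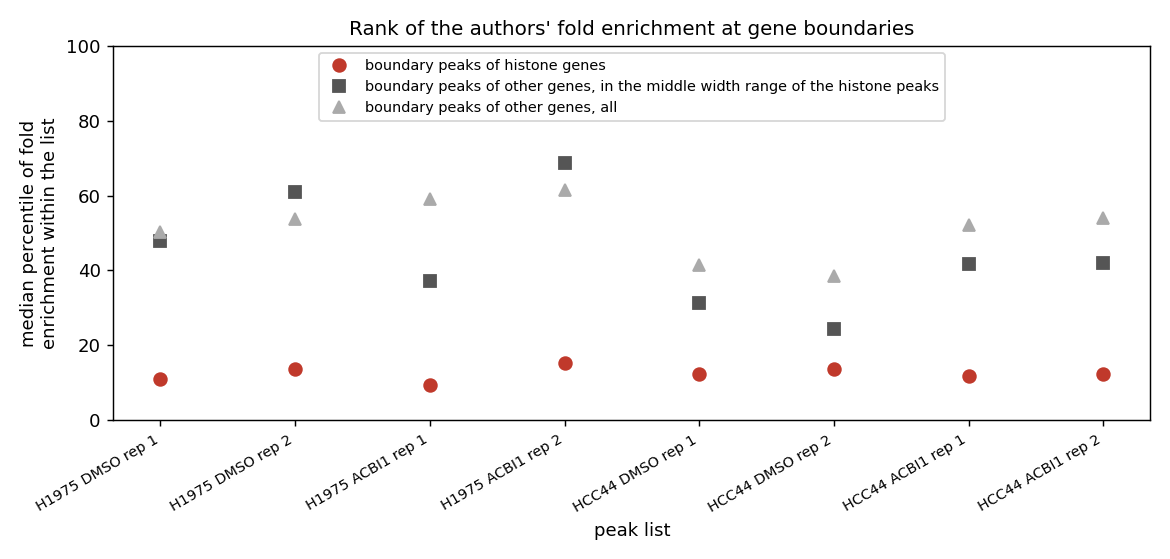
For each peak list on the horizontal axis, the points give the median percentile of fold enrichment within that list. Circles are boundary peaks of histone genes and triangles those of other protein-coding genes. Squares are other genes' peaks within the middle range of the histone peaks' widths, which were narrower at the median than the histone peaks. The circles lie between 9.27 and 15.1 and below both other sets in every list.

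Peaks at histone genes often served several genes. In the 8 lists, 23, 23, 22, 22, 17, 17, 16 and 17 boundary peaks touched the windows of 2 or more histone genes, and no peak touched more than 3. Among histone genes with a start in the promoter table, 13 pairs point away from each other with starts within 1 kb, 11 of them an H2A with an H2B gene, and the median distance between starts is 236 bp. A single peak covered both starts in all 8 lists in 7 pairs, among them H2BC21 with H2AC20, H2AC25 with H2BC26 and H2BC11 with H2AC11. It did so in the 4 H1975 lists and in no HCC44 list in 4 pairs, which are H2AC7 with H2BC7, H3C4 with H2BC7, H2BC8 with H2AC8 and H2AC14 with H2BC14. H3C4 is annotated with the same start as H2AC7, and these 2 pairs are therefore 1 stretch of DNA. No list had a peak over the pair H2AC1 and H2BC1.

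The start itself lay in a peak for 52, 52, 53 and 52 of 63 histone genes in H1975 (82.5% to 84.1%) and for 37, 36, 37 and 37 in HCC44 (57.1% to 58.7%). For the 15780 other protein-coding genes the share was 53.3% to 56.8%. At 1 kb downstream of the start, a peak covered on average 27.0% of histone genes in H1975 DMSO, 30.2% in H1975 ACBI1, 36.5% in HCC44 DMSO and 31.7% in HCC44 ACBI1. For other genes these averages were 9.63%, 5.97%, 13.7% and 7.46%. Histone genes are short, so this position lies beyond the end of most of them.

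**Figure D3:**
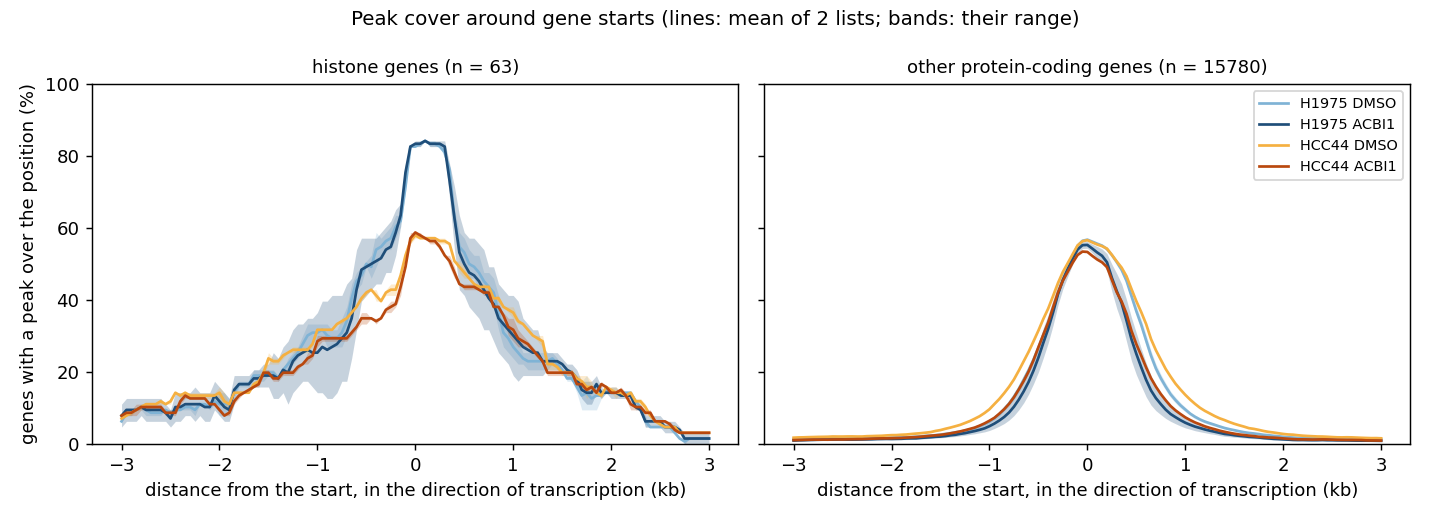
The percentage of genes with a peak over each position is drawn against distance from the annotated start, in kb along transcription, for 63 histone genes (left) and 15780 other protein-coding genes (right); lines are means of 2 lists per group and bands span both lists. At the start the histone curves reach 82.5% and 83.3% in H1975 and 57.9% and 58.7% in HCC44, while the other genes lie at 53.3% to 56.7% in all 4 groups.

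The first comparison asks how peaks at histone genes differed after 96 h of ACBI1 from those with DMSO in the same line. Every histone gene with a boundary peak in both DMSO lists kept one in both ACBI1 lists: 61 of 61 in H1975, where 95.2% of all such protein-coding genes did, and 47 of 47 in HCC44, where 91.9% did. None lost its boundary peak in both ACBI1 lists, against 2.52% of genes in H1975 and 5.53% in HCC44. H4C9, which encodes core histone H4, was the gene with a boundary peak in both ACBI1 lists and neither DMSO list of HCC44 (1 of 21 genes without one in DMSO, against 0.939% of all genes). None of the 7 without one in H1975 DMSO had one in both ACBI1 lists, against 0.691%. The peak at H4C9 in HCC44 ACBI1, chr6:27139460-27140057 after merging, had folds of 2.37 and 2.15, where the lowest folds in the lists are 1.60 and 1.56, whereas in H1975 the gene had 4.96, 5.78, 4.87 and 5.85. With a minimum fold of 5, which many of these peaks do not reach, 8 genes in H1975 and 1 in HCC44 counted as keeping a peak. At this cut-off not every gene that passed in both DMSO lists passed in both ACBI1 lists. In HCC44, H4C4 did, while H4C3, H1-3 and H4C11 fell below it in at least 1 ACBI1 list. In H1975, H2AC18, H4C15 and H2AC19 fell below it in both ACBI1 lists. H2BC5, H4C8, H2BC12, H2AC12 and H4C11 fell below it in ACBI1 replicate 1 alone.

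The number of histone genes with a boundary peak differed between ACBI1 and DMSO by 0 in H1975 and 1 in HCC44 (exact permutation test, two-sided, p = 1 and 0.333). Over both lines the mean difference was 0.5 (exact permutation p = 0.333). These differences depend on which peaks are counted: with each list reduced to its 22133 peaks of highest −log10 q the number in the shortest list, they were 13 in H1975 and 9.5 in HCC44, and at a minimum −log10 q of 20 they were −1.5 and −6. Distinct boundary peaks numbered 42 and 45 in H1975 DMSO, 40 and 46 in H1975 ACBI1, 30 and 30 in HCC44 DMSO and 32 and 31 in HCC44 ACBI1. The groups overlap in H1975 and lie apart by 1 peak in HCC44. The H1975 mean was 43.5 ± 2.12 with DMSO and 43 ± 4.24 with ACBI1 (SD, n = 2 each). The HCC44 mean was 30 ± 0 with DMSO and 31.5 ± 0.707 with ACBI1, and over both lines the difference of 0.5 gave an exact permutation p of 0.833. With 36 arrangements of labels within lines the smallest possible p is 0.0556, and with 6 arrangements in 1 line it is 0.333, so none of these tests can reach the usual threshold of significance.

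Peaks covered 41.8% and 38.0% of the 144423 bp of boundary windows in H1975 DMSO and 45.9% and 32.7% in H1975 ACBI1. In HCC44 they covered 35.6% and 35.9% with DMSO and 32.4% and 32.7% with ACBI1. The H1975 ACBI1 values enclose both DMSO values, and their mean difference of −0.628 percentage points is within the replicate SD of 6.85. Its sign depends on single libraries, with −7.21 without ACBI1 replicate 1, 5.96 without ACBI1 replicate 2 and 1.25 without DMSO replicate 1. In HCC44 both ACBI1 values lie under both DMSO values, with a difference of −3.20 percentage points and a replicate SD of 0.176 (exact permutation p = 0.333). With lists of equal length, 22133 peaks each, the differences were 8.30 percentage points in H1975 and 2.15 in HCC44, so the direction in HCC44 turns with list length.

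**Figure D4:**
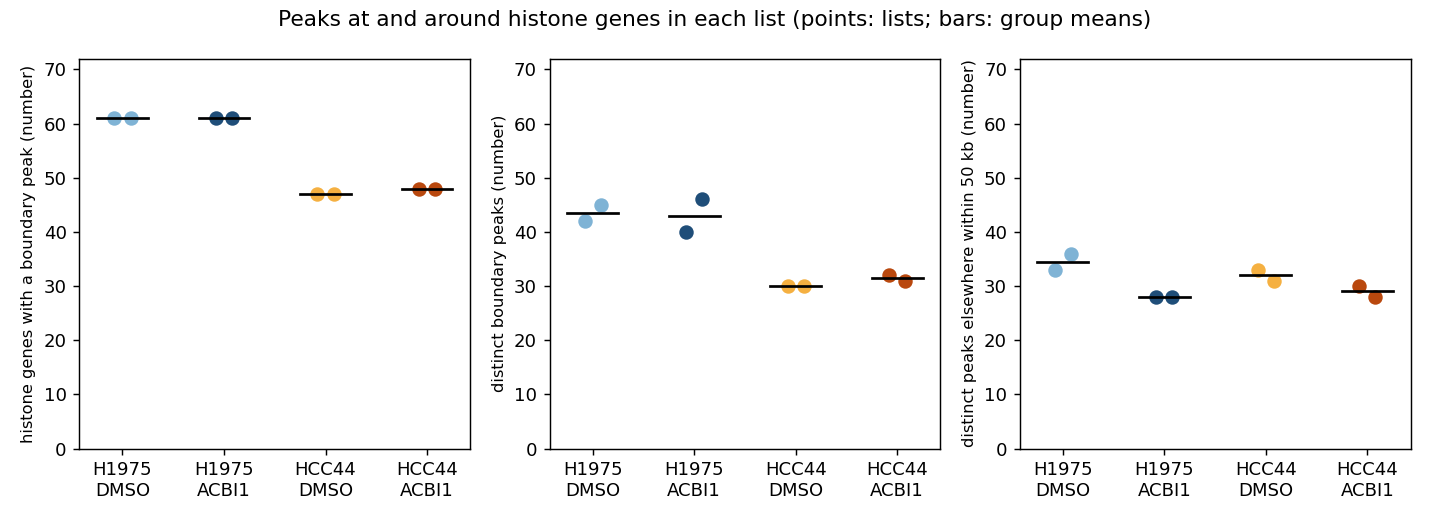
Points are the 8 peak lists and bars the group means for the number of histone genes with a boundary peak (left), of distinct boundary peaks (middle) and of distinct peaks elsewhere within 50 kb of a histone gene (right). HCC44 lies under H1975 in the first 2 panels, and in the third the ACBI1 means of 28 and 29 lie under the DMSO means of 34.5 and 32.

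Away from the gene ends fewer peaks were listed with ACBI1 in both lines, at the window sizes used here. Distinct peaks within 50 kb of a histone gene and outside every histone boundary window numbered 33 and 36 in H1975 DMSO and 28 and 28 in H1975 ACBI1. In HCC44 they numbered 33 and 31 with DMSO and 30 and 28 with ACBI1. The lists of the 2 treatments do not overlap in either line. The mean difference was −6.5 in H1975 (replicate SD 1.5) and −3 in HCC44 (replicate SD 1.41), each with an exact permutation p of 0.333. Over both lines it was −4.75 (exact permutation p = 0.0556), the smallest value the test can give. Relative to DMSO these are differences of −18.8% and −9.38%, beside −54.0% and −60.9% for peaks outside gene boundaries in the whole lists. The sets are not alike. The whole-list figures leave out peaks at the ends of every protein-coding gene, whereas the figures near histone genes leave out histone ends only.

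The direction of this difference depends on list length. When each list was reduced to the length of the shortest, the difference over both lines was 10 in place of −4.75, with 13 in H1975 and 7 in HCC44. ACBI1 lists were shorter than DMSO lists in both lines, and the part of list length in the difference was not tested beyond this. In HCC44 the difference of −3 also rests on how peaks are counted. It was 0 with surroundings of 25 kb and −0.5 when an overlap of 500 bp with a boundary window was required.

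What the peaks away from the histone ends lie on differed little by treatment for 2 kinds of gene. Those within 1 kb of a tRNA gene, many of which are interspersed with the chromosome 6 histone genes, numbered 10, 11, 11 and 12 in H1975 and 11, 10, 11 and 10 in HCC44. Those at the end of another protein-coding gene numbered 8, 8, 8 and 7 in H1975 and 9 in each HCC44 list. Those at neither of these, nor at a lncRNA end or histone pseudogene, numbered 15 and 17 in H1975 DMSO and 9 and 9 in H1975 ACBI1. In HCC44 the same class held 12 and 12 with DMSO and 10 and 9 with ACBI1. It is the class in which the treatments lie apart in both lines.

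Each gene's own surroundings were then counted, where a peak within 50 kb counts unless it is at that gene's own ends, so that peaks at neighbouring histone genes are included. Over the histone genes the median number was 8, 8.5, 7 and 8 in the H1975 lists, against 3, 3, 2 and 2 over all protein-coding genes. In the HCC44 lists it was 6, 5, 5 and 5, against 4, 4, 2 and 2. Fewer such peaks in both ACBI1 lists than in both DMSO lists were found for 12 of 68 histone genes in H1975 (17.6%, against 42.9% of all protein-coding genes). In HCC44 this held for 3, H1-3, H4C8 and H4C9 (4.41%, against 54.3%). The H1975 genes were H4C3, H1-6, H1-4, H2BC5, H2BC6, H4C4, H2AC7, H2BC7, H4C5, H2BC8, H2AC8 and H1-3, all in the long stretch of chromosome 6. The H1975 count was 36 without DMSO replicate 1 and 40 without ACBI1 replicate 2, and the HCC44 count 8 without DMSO replicate 1, 10 without DMSO replicate 2 and 12 without ACBI1 replicate 1. It also rests on the thresholds, with 26 and 39 genes in HCC44 at a minimum −log10 q of 20 and a minimum fold of 5.

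H1-3, a gene for linker histone H1, was the gene that both lines listed. Its surroundings held 13 and 13 peaks in H1975 DMSO, 11 and 12 in H1975 ACBI1, 4 and 4 in HCC44 DMSO and 3 and 3 in HCC44 ACBI1. The reverse, more peaks in both ACBI1 lists, held for no histone gene in H1975 (1.38% of all genes) and in HCC44 for H2AC1 and H2BC1 (1.84%). These are testis histone genes, and 1 peak at chr6:25720541-25721025, with folds of 5.77 and 4.79, accounts for both: their counts were 0, 0, 0 and 0 in H1975, 0 and 0 in HCC44 DMSO and 1 and 1 in HCC44 ACBI1.

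Peaks of the 4 lists of a line were merged into regions, so that joined and split peaks count once. Within 50 kb of a histone gene, 71 regions had a peak in both DMSO lists of H1975, of which 64 (90.1%, against 52% of all regions) also had one in both ACBI1 lists and 5 (7.04%, against 37.2%) had one in neither. In HCC44, 54 of 58 such regions were kept (93.1%, against 44.6%) and 3 lost (5.17%, against 49.2%). At the ends of histone genes 40 of 40 and 30 of 30 regions were kept. Elsewhere, 24 of 31 regions were kept and 5 lost in H1975, and 24 of 28 kept and 3 lost in HCC44. The shares over all regions are not matched for place, since most listed peaks lie away from gene ends. In the whole DMSO lists, 11030.5 peaks on average lay at protein-coding gene ends and 31223 did not in H1975. In HCC44 these were 11600.5 and 38521.5. Shares over all regions were not split by place. No region was gained in H1975 (against 1.34%) and 3 in HCC44 (4.23%, against 2.28%): those at H4C9 and near H2AC1 given above, and chr1:228471627-228472170, 13069 bp from H2BC26, with folds of 4.99 and 4.53. The HCC44 count of lost regions was 5 without DMSO replicate 1, 6 without DMSO replicate 2 and 8 at a minimum fold of 5, and the equal list lengths gave 16 gained regions in H1975.

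A pair of lost regions lay at the same places in both lines. Near H1-1 the region chr6:25971227-25971462 in H1975, 45570 bp from the gene, had folds of 9.19 and 10.5 in DMSO and no peak in ACBI1, and chr6:25970992-25971657 in HCC44 had 6.69 and 6.05. Near H2AC12 the region chr6:27168688-27169026 in H1975, 21126 bp from the gene, had folds of 8.85 and 10.7, and chr6:27168336-27169028 in HCC44 had 6.22 and 6.37. These 2 H1975 regions exceeded in fold every boundary peak of a histone gene in H1975 DMSO, the highest of which was 8.62. The other H1975 losses had folds from 3.19 to 4.44 and lay near H1-4, H4C6 and H4C8, the one near H4C6 only 2359 bp from it at chr6:26243152-26243419. The other HCC44 loss lay 46804 bp from H2BC13.

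The second comparison sets the lines side by side, whichever the treatment; it was added after the lists had been seen. HCC44 lacked boundary peaks at 13 histone genes that had one in all 4 H1975 lists (19.1%, against 1.97% of all protein-coding genes), and no histone gene showed the reverse (against 1.54%). The 13 were H1-1 of the linker histones, H2AC7 and H2AC8, H2BC6, H2BC7, H2BC8 and H2BC9, H3C6, H3C7 and H3C8, and H4C5, H4C6 and H4C12. The number of genes with a boundary peak was lower in HCC44 by 14 with DMSO and by 13 with ACBI1, with no spread between replicates. Over both treatments the difference of −13.5 had an exact permutation p of 0.0556, the smallest possible. Distinct boundary peaks differed by −12.5 (replicate SD 2.40, exact permutation p = 0.0556). Smallest gaps between peaks were wider in every HCC44 list than in every H1975 list, so the counts of distinct peaks rest on unlike joining. The difference in genes lay between −9 and −16.25 under the other settings tried, and the count of 13 genes was 6 at a minimum fold of 5.

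The HCC44 DMSO lists were the longest of the 8, and with lists of equal length the difference was −13.25 genes. By −log10 q in the H1975 lists, the 13 genes had a median percentile of 64.7, beside 61.6 for the 47 genes with peaks in all 8 lists.

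Of the 13 genes, 10 lie in 2 neighbouring parts of chromosome 6 in which no HCC44 list had any peak. The first, chr6:26197404-26233760 (36357 bp), holds H2AC7, H2BC7, H4C5, H2BC8, H2AC8 and H3C6. Each of the 4 H1975 lists had 4 peaks wholly inside it, with folds from 3.38 to 5.78. The second, chr6:26235268-26272880 (37613 bp), holds H4C6, H4C7, H3C7, H2BC9 and H3C8, and the H1975 lists had 4, 5, 2 and 4 peaks wholly inside it, with folds from 3.27 to 8.44. H4C7 had no boundary peak in either line.

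**Figure D5:**
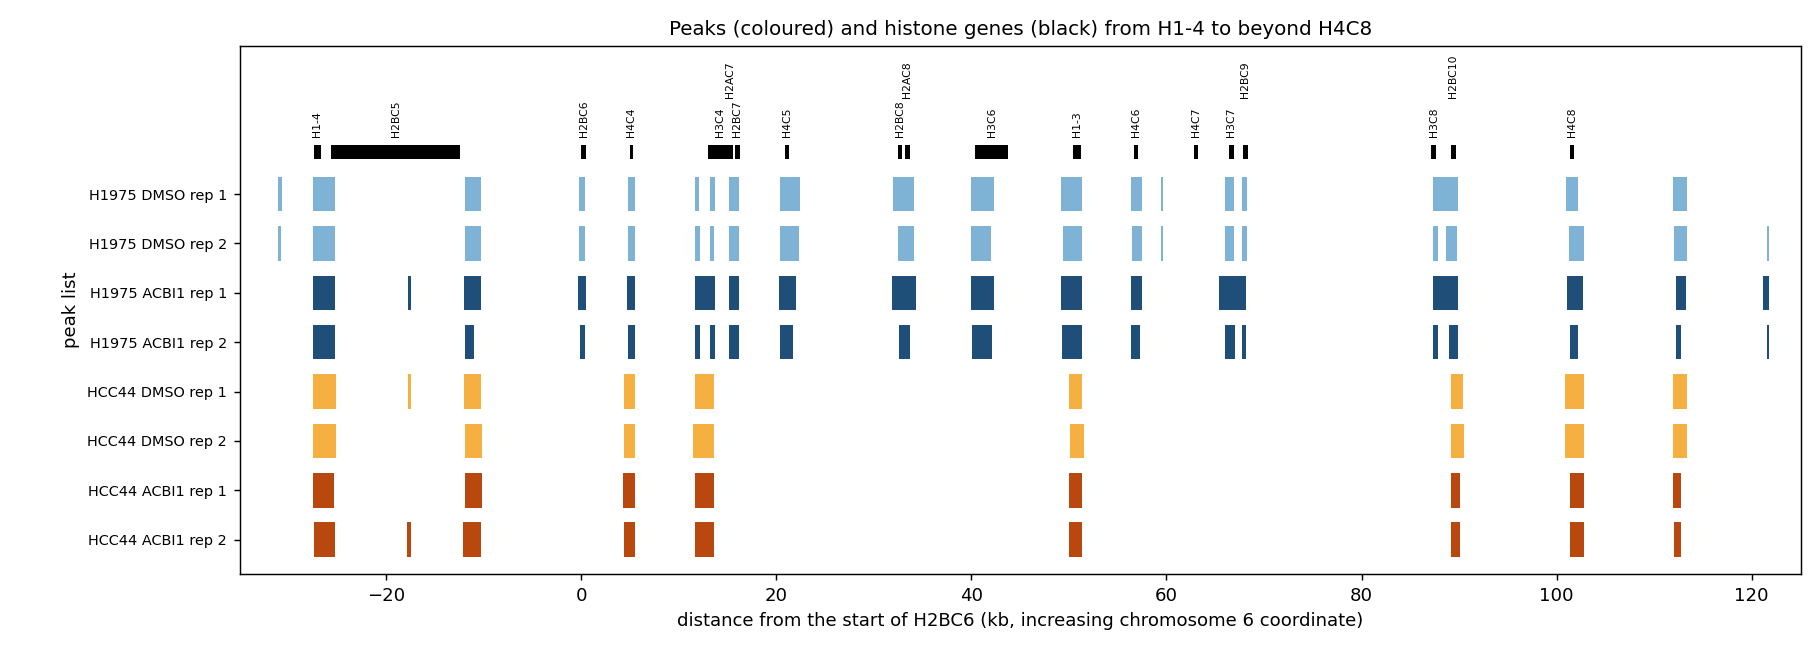
Histone genes (black) and listed peaks (coloured, 1 row per list) are drawn to scale along chromosome 6, in kb from the start of H2BC6. The 4 HCC44 rows are empty on both sides of H1-3, where the 4 H1975 rows hold peaks at 10 histone genes, and all 8 rows hold peaks at H4C4, H1-3, H2BC10 and H4C8.

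The genes next to these parts had peaks in both lines. H1-3, which stands between them, had folds of 4.92, 4.75, 4.24 and 4.36 in H1975 and 6.83, 6.51, 4.96 and 4.73 in HCC44. H2BC10, on the far side, had 3.51, 4.29, 3.41 and 5.78 in H1975 and 5.51, 4.73, 4.47 and 3.83 in HCC44. H4C8 had 5.91, 7.0, 4.78 and 7.63 in H1975 and 4.54, 4.51, 3.74 and 3.48 in HCC44. H3C4, whose annotated span covers H2AC7, had boundary peaks in all 8 lists, at its far end in HCC44.

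The other 3 genes lay outside both parts, though H2BC6 is near the first, with H4C4 between. H1-1 had folds of 2.81, 3.39, 2.32 and 3.41 in H1975, among the lowest of all boundary peaks there. H4C12 had 6.68, 7.28, 5.20 and 7.10, above those of its near twin H4C11 in the same lists, which were 5.75, 6.05, 3.90 and 5.85. H4C11 also had 6.15, 5.16, 4.40 and 4.2 in HCC44. H2BC6 is described above.

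Runs of consecutive protein-coding genes with the same pattern were rare elsewhere. In all, 10 runs of 6 or more genes in a row had a boundary peak in all 4 H1975 lists and in no HCC44 list. Of these, 9 lie on chromosome 19 and start and end with zinc finger genes, and 1 is the histone run from H2AC7 to H3C6. The longest has 14 genes.

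In surroundings too the lines differed at the same place. For 23 histone genes every HCC44 list held fewer peaks elsewhere within 50 kb than every H1975 list (33.8%, against 3.81% of all protein-coding genes), and for none more (against 5.05%). Of the 23, 19 lie in the long stretch of chromosome 6 and 4 in the last one. H4C5 had the most surrounding peaks of its stretch summed over the lists, with 14, 14, 12 and 13 in H1975 and 6, 5, 5 and 6 in HCC44. Since each gene's surroundings include the boundary peaks of its neighbours, these counts and the missing boundary peaks are not separate observations. How much of the difference in counts they share was not tested. Distinct peaks away from all histone ends differed between the lines by −0.75 (exact permutation p = 0.833).

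The most surrounding peaks were found at H2AC20, tied with H2AC21, in the first stretch of chromosome 1 (5, 6, 5 and 5 in H1975, 6, 7, 6 and 5 in HCC44) and at H2AC25 in the second. On chromosome 6 the other stretches were led by H4C9 (10, 10, 9 and 10, then 10, 10, 9 and 9) and H4C12 (9, 10, 8 and 10, then 9, 8, 9 and 8). The fewest were found at H2BC18, tied with H3C13, at H2BC26, at H2AC1, tied with H2BC1, at H2BC11, tied with H2AC11 and H2AC12, and at H3C12, tied with H2AC17 and H2BC17. H2AC1 had none in 6 lists, H2BC18 had 3 or 4 in each list and H3C12 had 4 or 5.

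No boundary peak was listed in any of the 8 lists at H2AC1, H2BC1, H1-6, H4C7, H4C14, H3C14 and H3C15. H2AC1, H2BC1 and H1-6 encode histones known from the testis, and H4C7 encodes a divergent form of H4. H4C14, H3C14 and H3C15 belong to a duplicated part of chromosome 1, in which near-identical copies can share reads, and the part this plays was not tested. Every histone gene had at least 1 peak within 50 kb in some list, whereas 9.42% of all protein-coding genes had none in any.

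In 14 stretches of 20 kb or more, none of the 8 lists had a peak. Each lies at least partly within 50 kb of a histone gene. Measured whole, they were 20137 to 83424 bp long, and some run beyond the 50 kb. Of these, 3 hold whole histone genes: chr6:25721026-25788479 (67454 bp) around H2AC1 and H2BC1, chr1:149813746-149843068 (29323 bp) around H4C14, H3C14 and H2AC18, and chr1:149850735-149885382 (34648 bp) around H2AC19 and H3C15. The stretch around H2AC19 also takes in the annotated start of H4C15 and the downstream end of H2BC21. H2AC18 and H2AC19 still had boundary peaks in all 8 lists, since their windows reach past these stretches. H4C15 had its boundary peak at its downstream end. Next to the first, chr6:25660809-25720540 (59732 bp) was also without a peak, and the single region between them is the one seen in HCC44 ACBI1.

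The other 11 hold no whole histone gene, though chr1:149770904-149792651 takes in the downstream end of H2BC18. On chromosome 1 they are chr1:149712885-149770471, chr1:149770904-149792651, chr1:228416852-228445822 and chr1:228501539-228544070. On chromosome 6 they are chr6:25660809-25720540, chr6:25971658-25991794, chr6:25993440-26016517, chr6:26066299-26087331, chr6:27189109-27230214, chr6:27839876-27864910 and chr6:27903720-27987143. The last, downstream of H2BC17, is the longest.

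Genes that act on the histone clusters or resemble their members were also counted. All 21 genes of a list of histone locus and histone mRNA factors, among them NPAT, HINFP, the stem-loop binding protein gene SLBP and POU2F1, had boundary peaks in all 8 lists. Of all protein-coding genes 52.7% had, which is also the share to set beside the variant genes below. Both ACBI1 lists had fewer surrounding peaks than both DMSO lists for 5 of these 21 genes in H1975 (against 42.9% of all protein-coding genes) and 12 in HCC44 (against 54.3%). Of 11 variant or replication-independent histone genes, 10 had boundary peaks in all 8 lists, including H2AZ1, H3-3B and CENPA, and MACROH2A2 in none. Among neighbours within 50 kb, 17 of 23 tRNA genes and 9 of 14 histone pseudogenes had a peak within 1 kb in all 8 lists, and 1 pseudogene, H3P26, had the pattern of the 13 genes. Shares over all tRNA genes or pseudogenes were not counted. No peak away from histone gene ends was assigned to a histone pseudogene in any list, so the pseudogene peaks are not separate from peaks counted above.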

How the data were processed

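Each sample's deposited peak list was used as the authors made it: 9 columns in the broadPeak layout, 1 list per sample, with no pooling of replicates. The authors' fold enrichment of a peak over background is a linear ratio, and the authors' q-value was deposited as −log10. Reads were aligned with BWA to hg38, per the submitters' processing notes; the peak caller, its version and its filters are not given in the sources used here. Libraries had 11 PCR cycles, per the labels' protocols. No read count was used, so depth and counting error are unknown. Both values depend on depth and were used only within a list.

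Peaks were joined to genes of the RefSeq table of GRCh38.p14, and starts and strands came from its promoter table, which holds 63 of the 68 genes. Boundary windows reached 1 kb and surroundings 50 kb. Group means were compared by exact permutation tests, two-sided, with labels permuted within line or treatment. Named genes were those with no boundary peak or one that differed between lists, the testis genes, those with the most and fewest surrounding peaks per stretch, the highest median fold rank per family, and those with fewer surrounding peaks with ACBI1 in both lines. Members and lists were chosen with earlier results of these data known, and the comparison of lines and its alternatives were chosen after seeing the data. Counting was tested on simulated data. Python 3.11.15, numpy 2.4.6, pandas 2.3.3, scipy 1.17.1 and matplotlib 3.10.9 were used.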

Additional observations from a re-analysis of the deposited data

How the results depend on the processing

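Of 233 values under other settings, 24 reversed in sign, 30 moved and 179 did neither. For a tested difference, doing neither means only that its sign did not reverse, whatever its size. The 179 also include the values with replicate as a block, whose estimates cannot differ. No test here can reach significance. At equal list lengths (22133 peaks by −log10 q), ACBI1 minus DMSO was 13, 7 and 10 (H1975, HCC44, both lines) for peaks away from histone ends, 12.5 in H1975 for boundary peaks, 8.30, 2.15 and 5.22 percentage points for cover, and 13 in H1975 for genes with a boundary peak. Genes with fewer surrounding peaks then numbered 0 and 1, lost regions 0 and 1, gained regions 16 and 8, and retained regions in H1975 38. At a −log10 q of 20 or more, boundary peaks differed by −3.5 in HCC44 and −2 over both, and genes by −1.5, −6 and −3.75; 26 HCC44 genes had fewer surrounding peaks, 3 H1975 regions were lost and 0 HCC44 regions gained. At a fold of 5 or more, boundary peaks differed by −3.5 and −2, genes by −1.5, −4 and −2.75, 8 and 1 genes kept a peak, 39 HCC44 genes had fewer surrounding peaks, 8 HCC44 regions were lost, 23 and 8 retained and 0 gained, and 6 genes were listed in H1975 alone. Windows of 500 bp gave genes −1.5 in H1975 and −0.25 over both. Windows of 5 kb gave boundary peaks −1.5 over both. An overlap of 500 bp or 50% gave boundary peaks −1 in HCC44 and −0.75 over both, genes −1.5, −1.5 and −1.5, and 1 gained H1975 region. Surroundings of 25 kb gave 4 and 0 genes with fewer peaks and 1 lost HCC44 region; 100 kb gave 34 and 7 genes and 6 lost HCC44 regions. HCC44 minus H1975 for peaks away from histone ends was 3.5 at equal lengths, 2.25 with 5 kb windows and 3 with 100 kb surroundings. Causes were not tested.

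Leaving out 1 list at a time gave boundary peak differences from −3.5 to 2.5 in H1975 and −1 to 2 over both, cover from −7.21 to 5.96 and −5.21 to 1.38, 12 to 40 and 3 to 12 genes with fewer surrounding peaks, 3 to 6 lost HCC44 regions and 0 to 1 gained H1975 regions. The differences kept sign for peaks away from histone ends over both lines (−5.5 to −4), and 13 genes stayed the count for H1975 alone. With the replicate number as a block the estimates are the same, for example −4.75 peaks away from histone ends and −13.5 genes between the lines, each with an exact permutation p of 0.125. Differences between same-numbered lists correlated by −0.0109 in H1975 and 0.0150 in HCC44, so the numbers were not taken to pair the samples. Without read depth, an unlisted peak cannot be told from one below the caller's threshold.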
